A study of Arabidopsis thaliana with 4 samples.

Results

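The genes described here encode the cytosolic large ribosomal subunit proteins of families L19 to L40 in Arabidopsis thaliana. They were chosen by locus identifier from the naming of the plant cytosolic ribosomal proteins, and the rule used no measured value. The list held 59 loci in 23 families, and 54 of them were among the 8346 loci with reads in the table. The other 5 loci (AT1G36240, AT3G55170, AT1G07070, AT1G15250 and AT3G10950) had no read in any library. The product names of the reference annotation called 53 of the 59 ribosomal proteins or, for L40 AT3G52590, a ubiquitin extension protein. The remaining 6, in families L21 and L26, were named there only as translation proteins with an SH3-like fold.

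TAIL-seq reads the 3′ ends of RNA, giving the length of the A tract and the bases that follow it. Total RNA gave 4 libraries, made from 2-week-old seedlings of ecotype Col0, grown on soil in cycles of 16 h light and 8 h dark, with 1 library per genotype. The genotypes were urt1 (allele urt1-1, line Salk_087647C), xrn4 (allele xrn4-3, line SALK_014209), urt1 xrn4 (the double mutant of both alleles) and WT. No further treatment was given in the labels, and whether plants were pooled was not stated. With no replicate, every interval below is a 95% interval for counting error only, no p-value was computed, and a difference between libraries cannot be told apart from a difference between genotypes.

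The members of these families are built into the large subunit of the ribosome, which joins amino acids into proteins. Nearly all families have several gene copies in plants, and their mRNAs are among the abundant ones of growing tissue. URT1 is a terminal uridylyltransferase that adds U to the shortened A tails of mRNAs, and XRN4 is the cytoplasmic exoribonuclease that degrades decapped mRNA from the 5′ end. U added to a short A tail marks an mRNA that has been deadenylated, and in plants it is also known to limit further trimming of the tail.

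All tails in the table had A tracts of 4 to 30 nt. A share of reads therefore counts mRNAs with short tails and is no measure of mRNA level, and in whole seedlings fewer cells of a type and less RNA per cell cannot be told apart. The libraries held 43391 reads for urt1, 9797 for xrn4, 26300 for urt1 xrn4 and 10304 for WT. No read came from URT1 or XRN4 in any of the 4 libraries, so the labels could not be checked on these transcripts. All 6 green tissue markers had reads in each library, while the 5 seed storage and 3 root markers had none in any.

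The forms that carry the results are printed below, as the most frequent tail of its kind at a locus. Small letters are the A tract and capitals are the nucleotides added after it, where T in the table stands for U.
L19 AT1G02780, urt1, unmodified, 14 of 115 reads: aaaaaaaaaaaaaaaa
L19 AT1G02780, xrn4, U added, 7 of 40 reads: aaaaTTTTTTT
L19 AT1G02780, WT, U added, 7 of 49 reads: aaaaaaaaaaaT
L23 AT3G04400, urt1, unmodified, 45 of 377 reads: aaaaaaaaaaaaaaaaa
L23 AT3G04400, xrn4, U added, 7 of 86 reads: aaaaaaaaaaaTTT
L23 AT3G04400, WT, U added, 2 of 80 reads: aaaaaaaaaaaaaaT
L31 AT5G56710, urt1, unmodified, 29 of 306 reads: aaaaaaaaaaaaa
L31 AT5G56710, xrn4, U added, 5 of 77 reads: aaaaaaaaaaaaT
L31 AT5G56710, WT, U added, 5 of 50 reads: aaaaaaaaT
L36 AT5G02450, xrn4, U added, 6 of 15 reads: aaaaaaaaaTT
L27 AT3G22230, xrn4, U added, 8 of 28 reads: aaaaaaaaaaaaTT
L37a AT3G60245, xrn4, U added, 9 of 48 reads: aaaaaaaaaaaaaT
L37a AT3G60245, urt1 xrn4, C added, 14 of 139 reads: aaaaaaaaaaaaaaC
L37a AT3G60245, WT, U added, 6 of 39 reads: aaaaaaaaaaaT

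The printed WT forms each end in 1 U, whereas the printed xrn4 forms carry 1, 2, 3 or 7 U. Where an extension mixed U and A, the direction in which the table writes it was not stated, so none of these was printed.

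The 54 loci gave 4739 reads in all, of which 2428 were from urt1, 471 from xrn4, 1434 from urt1 xrn4 and 406 from WT. Reads were unevenly spread over the loci. The 13 loci with at least 100 reads over the 4 libraries held 77.4% of them, and the median of the 54 loci was 26.5 reads. A further 8 loci had 51 to 95 reads, 11 had 21 to 48, 7 had 11 to 19 and 15 had 2 to 9. Many reads were identical in locus, A length and added bases: distinct tails, in which identical reads count once, made up 26.3% of member reads in urt1, 44.6% in xrn4, 35.3% in urt1 xrn4 and 47.3% in WT. The table gives no molecular identifiers, and whether copied reads had been removed was not stated. Intervals that treat each read as a molecule can therefore be too narrow.

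Uridylated tails made up 2.55% of member tails in urt1 (62 of 2428; 1.96 to 3.26), 34.2% in xrn4 (161 of 471; 29.9 to 38.7), 6.76% in urt1 xrn4 (97 of 1434; 5.52 to 8.19) and 16.3% in WT (66 of 406; 12.8 to 20.2). The order of the libraries was xrn4, WT, urt1 xrn4 and urt1, from high to low, and no 2 intervals overlapped. With identical reads counted once, urt1 xrn4 had 13.04% (10.2 to 16.3) and WT 18.2% (13.04 to 24.4), and these intervals overlapped. Shares in the 2 sequencing lanes, which held all 4 libraries, were 2.85% and 2.26% in urt1, 36.1% and 32.4% in xrn4, 6.30% and 7.20% in urt1 xrn4, and 18.4% and 14.4% in WT.

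**Figure D1:**
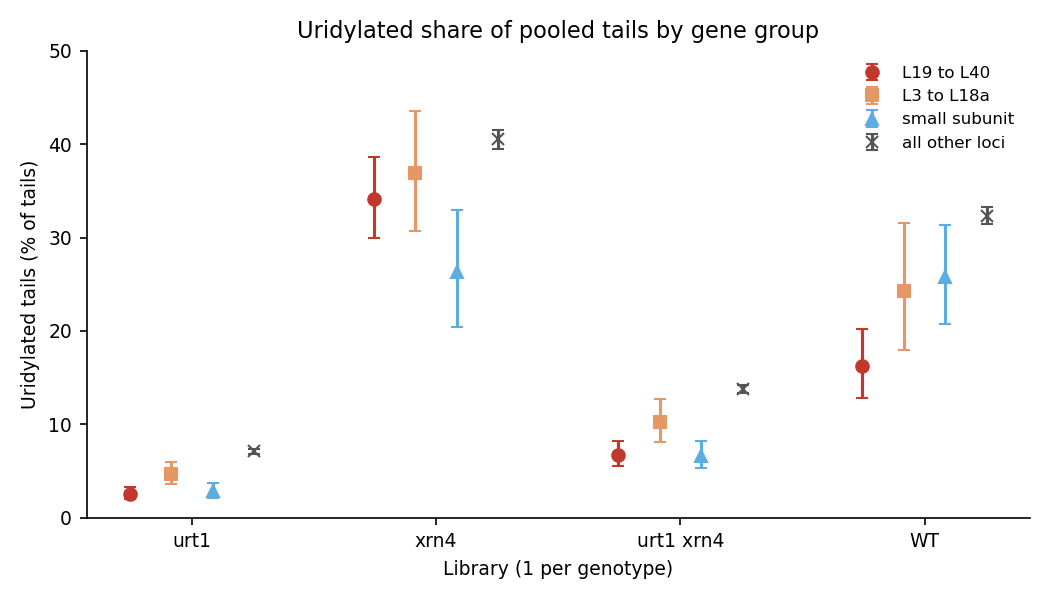
Uridylated tails as a percentage of all pooled tails in each library, for the L19 to L40 loci, the L3 to L18a loci, the small subunit loci and all loci outside the L19 to L40 list. Points are the share in 1 library and bars are exact 95% binomial intervals for counting error; the L19 to L40 loci lie below all other loci in each library, by 16.1 points in WT.

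Over pooled reads, the members were less uridylated than all other loci of the table in each library. All other loci together had 7.13% uridylated tails in urt1, 40.5% in xrn4, 13.8% in urt1 xrn4 and 32.4% in WT. Members minus all other loci came to -4.58 points in urt1 (-5.19 to -3.83), -6.33 points in xrn4 (-10.6 to -1.82), -6.99 points in urt1 xrn4 (-8.26 to -5.51) and -16.1 points in WT (-19.5 to -12.1). With identical reads counted once, the difference was -10.5 points in WT, -2.999 in urt1 and -3.85 in urt1 xrn4, but 0.225 points in xrn4, where members had 31.4% and other loci 31.2%. Members had longer A tracts than the other loci. Weighting the other loci to the A lengths of the members gave them 6.02% in urt1, 38.3% in xrn4, 12.2% in urt1 xrn4 and 30.5% in WT, still above the members in each library. By locus the order was not the same in each library. Among loci with at least 20 tails, the median share in WT was 23.8% for 7 members and 17.6% for 51 other loci. Medians of members and other loci were 2.52% and 4.04% in urt1, 32.1% and 31.7% in xrn4, and 5.26% and 5.38% in urt1 xrn4.

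Set beside the other ribosomal protein genes, the members had 16.3% in WT, against 24.2% for the L3 to L18a loci of the same subunit and 25.8% for the small subunit loci. The difference in WT was -7.99 points from L3 to L18a (-15.8 to -0.909) and -9.54 points from the small subunit (-15.8 to -3.39). In urt1 the difference from the small subunit loci was -0.302 points, with an interval of -1.37 to 0.689. In xrn4 they were 7.84 points above them (0.198 to 14.9). Counted over distinct tails, the differences were -7.63 points from L3 to L18a in WT (-17.5 to 1.71), -6.03 points from the small subunit in WT (-14.5 to 2.39) and 7.16 points from it in xrn4 (-2.65 to 16.4), and each of these intervals included 0.

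In urt1 the pooled share of uridylated member tails was 6.37-fold lower than in WT, or -13.7 points apart (-17.6 to -10.4). The share of all other loci was 4.54-fold lower, or -25.2 points apart (-26.2 to -24.3). Of the 7 member loci with at least 20 tails in both libraries, 5 were lower by at least 10 points and none was higher. By comparison, 55.2% of the 58 loci of the table that met the minimum were lower by that size and 0% were higher. The 5 were L19 AT1G02780, L31 AT5G56710, L36 AT5G02450, L37a AT3G60245 and L27a AT1G70600. Those that moved by less were L23 AT3G04400 and L26 AT3G49910, both among the 3 loci with the most reads. Over distinct tails, 2 members met the minimum and 1 of them passed, and the same count over all loci was not made.

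L19 AT1G02780 (emb2386) is a member of the family whose protein reaches from the large to the small subunit. It had 3 uridylated of 115 tails in urt1, 21 of 40 in xrn4, 1 of 42 in urt1 xrn4 and 16 of 49 in WT. It was the locus with the most uridylated WT reads of all members, and urt1 differed from WT by -30.04 points (2.61% against 32.7%; -44.1 to -17.6).

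L31 AT5G56710, whose protein sits near the exit of the peptide tunnel, had 1 uridylated of 306 tails in urt1, 33 of 77 in xrn4, 1 of 87 in urt1 xrn4 and 7 of 50 in WT. Both libraries with the urt1 allele held a single uridylated read. The share was 0.327% in urt1 and 14% in WT, and that in xrn4 was 42.9%, the source of 20.5% of all uridylated member reads there.

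L37a AT3G60245, a small zinc-binding protein, had 0 uridylated of 174 tails in urt1, 11 of 48 in xrn4, 9 of 139 in urt1 xrn4 and 10 of 39 in WT. The count of 0 in urt1 allows a share of up to 1.72%. L36 AT5G02450 had 0 of 144 in urt1, 6 of 15 in xrn4, 3 of 63 in urt1 xrn4 and 5 of 21 in WT. All 6 uridylated reads of this locus in xrn4 were the single form with 2 U printed above, whereas the 5 in WT were 5 different forms with 1 U.

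**Figure D2:**
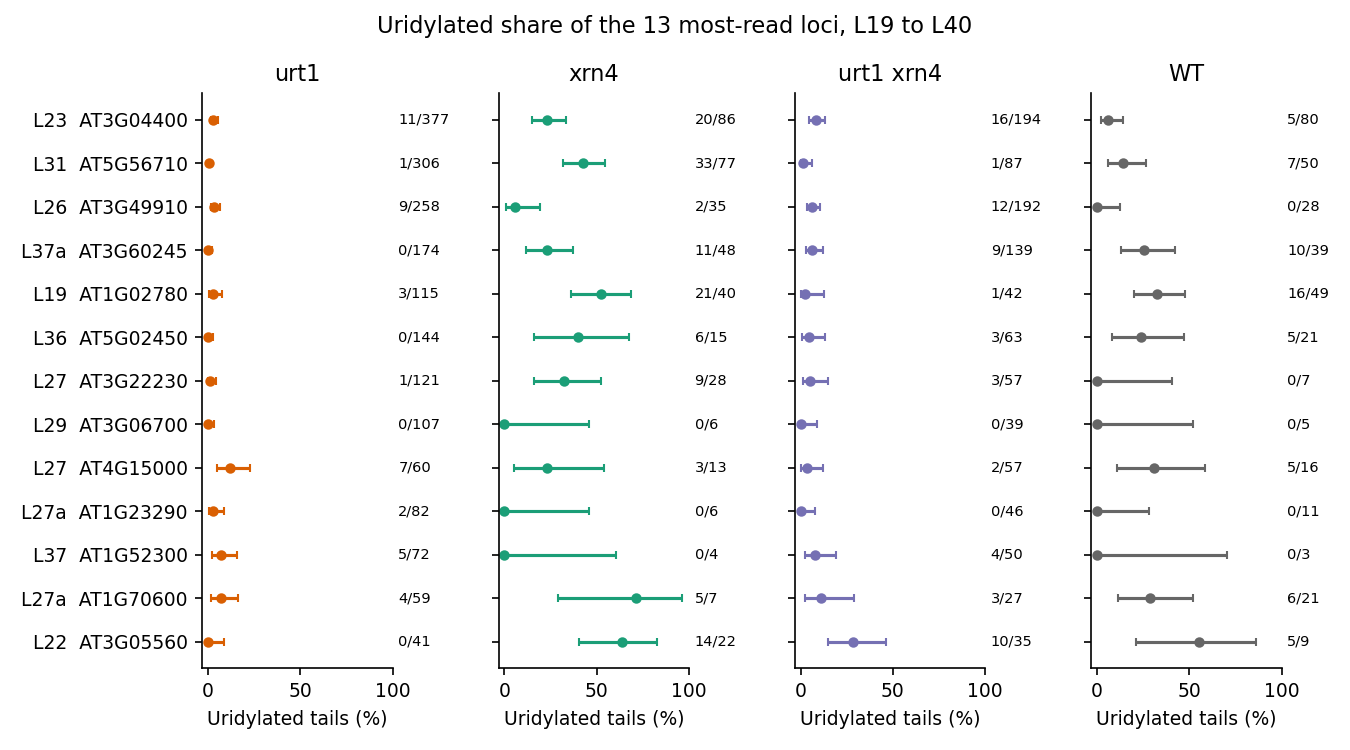
Uridylated tails (%) of the 13 loci with at least 100 reads over the libraries, 1 panel per library, with loci from most to fewest reads down the page. Points are the share of 1 locus, bars are exact 95% binomial intervals for counting error, and the numbers to the right are uridylated tails over all tails; L19 AT1G02780 has 16 of 49 in WT while L26 AT3G49910 has 0 of 28.

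L23 AT3G04400 (emb2171), which lies at the interface of the subunits, had the most reads of any member. Its uridylated tails were 11 of 377 in urt1, 20 of 86 in xrn4, 16 of 194 in urt1 xrn4 and 5 of 80 in WT. The share in WT was 6.25%, and urt1 differed from it by -3.33 points, with an interval of -11.0 to 0.861. L26 AT3G49910, near the tunnel exit, had 9 of 258 in urt1, 2 of 35 in xrn4, 12 of 192 in urt1 xrn4 and 0 of 28 in WT. Its share lay between 0 and 6.25% in the 4 libraries, so at this depth no difference between genotypes was detectable at this locus.

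L29 AT3G06700 had no uridylated tail at all: 0 of 107 in urt1, 0 of 6 in xrn4, 0 of 39 in urt1 xrn4 and 0 of 5 in WT. Over its 157 reads this allows a share of up to 1.91%, but only 11 of these reads came from the libraries without the urt1 allele. L37 AT1G52300, which also binds zinc, had 5 of 72 in urt1, 0 of 4 in xrn4, 4 of 50 in urt1 xrn4 and 0 of 3 in WT. Its few WT and xrn4 reads give no usable share.

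In xrn4 the pooled uridylated share of members was 2.10-fold that in WT, or 17.9 points more (12.2 to 23.4). All other loci differed by 8.16 points (6.80 to 9.52). The members' difference was 11.5 points with loci weighted equally and 9.85 points over extensions of U alone. Of the 5 member loci with at least 20 tails in both libraries, 3 were higher by at least 10 points and none was lower, where 61.8% of the 34 loci of the table passed that size in either direction and 50% were higher. The 3 were L31 AT5G56710 (28.9 points; 12.8 to 42.0), L19 AT1G02780 (19.8 points; -0.651 to 38.4) and L23 AT3G04400 (17.01 points; 6.24 to 27.6). L37a AT3G60245 had 22.9% in xrn4 and 25.6% in WT, and the interval of the difference was -20.9 to 14.8 points.

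Loci under 20 WT tails varied widely in xrn4, and many rest on few reads. L22 AT3G05560, an RNA-binding ribosomal protein, had 0 of 41 in urt1, 14 of 22 in xrn4, 10 of 35 in urt1 xrn4 and 5 of 9 in WT. The 14 reads in xrn4 were 7 different forms, while the 5 reads in WT were all 1 form. L34 AT1G26880 had 10 of 10 uridylated tails in xrn4, in 3 forms that all mixed U and A, against 0 of 2 in WT. L38 AT3G59540 had 6 of 6 in xrn4, in 2 forms of 2 U each, against 0 of 1 in WT. L28 AT2G19730 had 7 of 7 in xrn4, all 1 form, against 0 of 2 in WT. Others of like depth had no uridylated tail in xrn4: L34 AT3G28900 and L36a AT4G14320 had 0 of 7 each, and L35 AT3G09500, L29 AT3G06700 and L27a AT1G23290 had 0 of 6 each. The L28, L34, L35, L36a and L38 loci were chosen after their values were seen, and so few forms cannot separate repeated copies of 1 molecule from several molecules.

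Of member tails, 6.76% were uridylated in urt1 xrn4, against 34.2% in xrn4, a 5.05-fold lower share (-27.4 points; -32.0 to -23.0). For all other loci the double mutant was 26.8 points lower. Of 7 member loci tested, 6 were lower by at least 10 points and none was higher, and 70.2% of the 47 loci tested passed that size in either direction, 6.38% higher and 63.8% lower. L19 AT1G02780 had the largest difference, -50.1 points (-64.8 to -32.1), followed by L31 AT5G56710 at -41.7 points (-52.9 to -30.1). L26 AT3G49910 was the exception, with 6.25% in urt1 xrn4 and 5.71% in xrn4.

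The double mutant kept more uridylated member tails than urt1 alone, by 4.21 points (2.83 to 5.73), a 2.65-fold share. Over extensions of U alone the members' difference was 1.85 points. Counting all extensions with U, the other loci differed by 6.63 points (6.13 to 7.13), a 1.93-fold share. Of 18 member loci tested, 2 were higher by at least 10 points and none was lower, where 24.6% of the 203 loci tested passed that size in either direction. These 2 were L22 AT3G05560 at 28.6 points (13.6 to 45.1) and L38 AT3G59540 at 15.4 points (-3.19 to 33.5). The uridylated reads of L38 in the double mutant were 4 copies of 1 form.

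Against WT, the uridylated share of member tails in the double mutant differed by -9.49 points (6.76% against 16.3%, -13.6 to -5.93). All other loci differed by -18.6 points (-19.6 to -17.6). Of 7 member loci, 5 were lower by at least 10 points and none was higher, where 50.9% of the 53 loci tested passed that size in either direction, 5.66% higher and 45.3% lower. L19 AT1G02780 was lower by the most, at -30.3 points (-44.4 to -15.1), and the others were L37a AT3G60245 at -19.2 points, L36 AT5G02450 at -19.05 points, L27a AT1G70600 at -17.5 points and L31 AT5G56710 at -12.9 points. With identical reads counted once the pooled difference of the members was -5.19 points, with an interval of -11.8 to 0.608.

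Members also differed from the rest of the table in how many U were added. Single U made up 83.9% of uridylated member tails in urt1 (52 of 62), 35.4% in xrn4 (57 of 161), 68.0% in urt1 xrn4 (66 of 97) and 86.4% in WT (57 of 66). In all other loci the shares were 69.1%, 24.01%, 52.1% and 31.7% in the same order of libraries. The members stood 54.7 points above the other loci in WT (44.3 to 61.2), and 14.8, 11.4 and 15.9 points above them in urt1, xrn4 and urt1 xrn4. With identical reads counted once, the difference in WT was 41.7 points (25.7 to 51.9). In urt1 it was then 11.5 points with an interval that included 0 (-1.53 to 19.7), in xrn4 12.3 points (0.663 to 24.4) and in urt1 xrn4 19.7 points (7.70 to 29.5).

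The WT pattern was not carried by 1 locus. All 8 member loci with at least 5 uridylated WT tails had 1 U in most of them, against 51 of 218 other loci (23.4%). This minimum counts identical reads each time. The distinct uridylated WT forms were 7 at L19 AT1G02780, 4 at L23 AT3G04400 and 3 each at L31 AT5G56710 and L27a AT1G70600. They were 2 at L27 AT4G15000 and 1 at L22 AT3G05560. L19 AT1G02780 had 1 U on 15 of its 16 uridylated WT tails, L37a AT3G60245 on 7 of 10, L31 AT5G56710 on 7 of 7 and L27a AT1G70600 on 6 of 6. The L3 to L18a loci had a similar share in WT, 92.5% (37 of 40), whereas the small subunit loci had 38.4% (28 of 73). The difference was present in each class of A length, on few reads. Among WT tails of 4 to 9 A, 92.9% (13 of 14) of the members' and 26.7% of the other loci's uridylated tails had 1 U. Among 10 to 13 A the shares were 82.1% (23 of 28) and 22.7%, and among 14 to 30 A 87.5% (21 of 24) and 41.0%. Of the 14 reads, 5 were 1 form of L22 AT3G05560 and 5 were 1 form of L31 AT5G56710. Of the 28 reads, 7, 6 and 4 were 1 form each of L19 AT1G02780, L37a AT3G60245 and L27 AT4G15000. Shares over distinct tails were not computed by class.

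**Figure D3:**
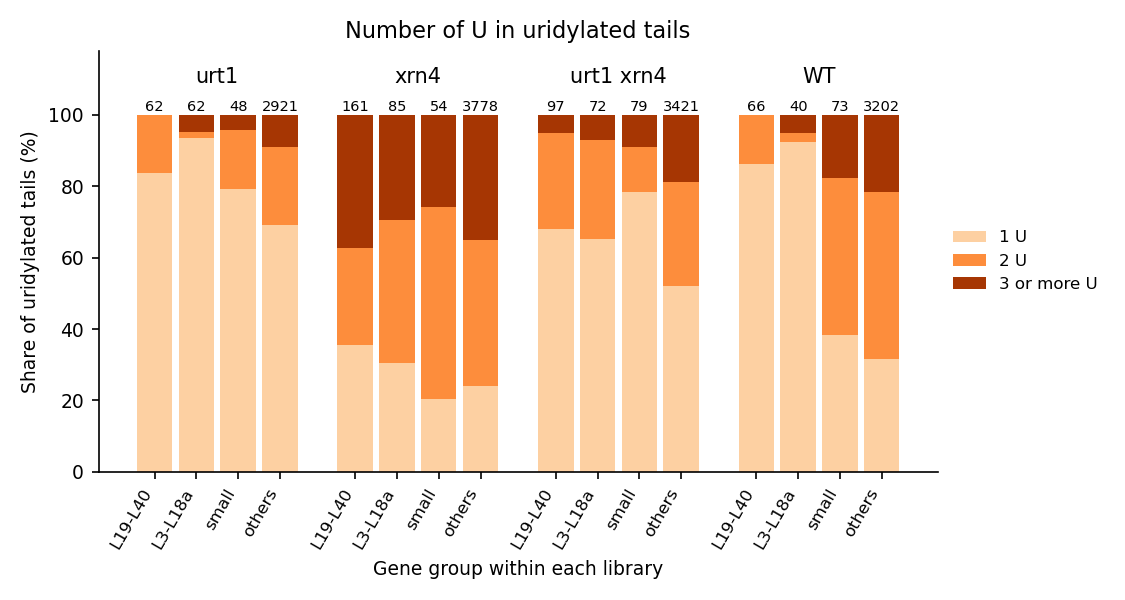
Share of uridylated tails with 1 U, 2 U or 3 or more U, for the L19 to L40 loci, the L3 to L18a loci, the small subunit loci and all loci outside the L19 to L40 list, within each library. Numbers above the bars are uridylated tails; in WT 86.4% of the L19 to L40 tails have 1 U, against 31.7% for all other loci.

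Tails with 3 or more U were found in 0 of 62 uridylated member tails in urt1, 60 of 161 (37.3%) in xrn4, 5 of 97 (5.15%) in urt1 xrn4 and 0 of 66 in WT. A count of 0 allows up to 4.84% in urt1 and 4.55% in WT. All other loci had 8.87% in urt1, 35.2% in xrn4, 18.8% in urt1 xrn4 and 21.6% in WT. Over distinct tails the shares in xrn4 were 28.8% (19 of 66) for members and 29.3% for other loci. In urt1 xrn4 they were then 7.58% (5 of 66) and 18.5%. The 60 reads in xrn4 came from 10 loci. L19 AT1G02780 gave 15 of them and no WT read of this locus had 3 or more U; L31 AT5G56710 gave 13, and L23 AT3G04400 gave 8. Of the 60 reads, single forms of L19 AT1G02780, L23 AT3G04400 and L28 AT2G19730 gave 7 each, and 1 form of L24 AT2G36620 gave 5. The longest member extension in xrn4 held 7 U, which is the L19 form printed above.

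Extensions that mix U and A made up 19.4% of uridylated member tails in urt1, 27.95% in xrn4, 42.3% in urt1 xrn4 and 9.09% in WT. In all other loci they made up 29.5%, 17.2%, 26.4% and 13.1% in that order. Over distinct tails, members and other loci had 17.1% (6 of 35) and 17.9% in WT. L23 AT3G04400 and L26 AT3G49910 each had 9 such reads in urt1 xrn4, of 16 and 12 uridylated reads.

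Uridylated member tails had short A tracts in all 4 libraries, with a median of 12.5 A in urt1 and 12 A in each of xrn4, urt1 xrn4 and WT. In tails of 10 to 13 A, the uridylated share was 6.87% in urt1, 71.3% in xrn4, 10.1% in urt1 xrn4 and 35.9% in WT. In tails of 19 to 25 A it was 1.23% in urt1, 7.06% in xrn4, 3.27% in urt1 xrn4 and 0.833% in WT. In the few tails of 26 to 30 A it was 0.794% for urt1, 5.88% for xrn4 and 2.04% for urt1 xrn4, but 16.1% for WT (5 of 31; 5.45 to 33.7), above the 12.4% of WT tails of 14 to 18 A. The members and the other loci were close at 10 to 13 A in xrn4, at 71.3% and 69.1%. They were far apart at that length in WT, at 35.9% and 65.2%.

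**Figure D4:**
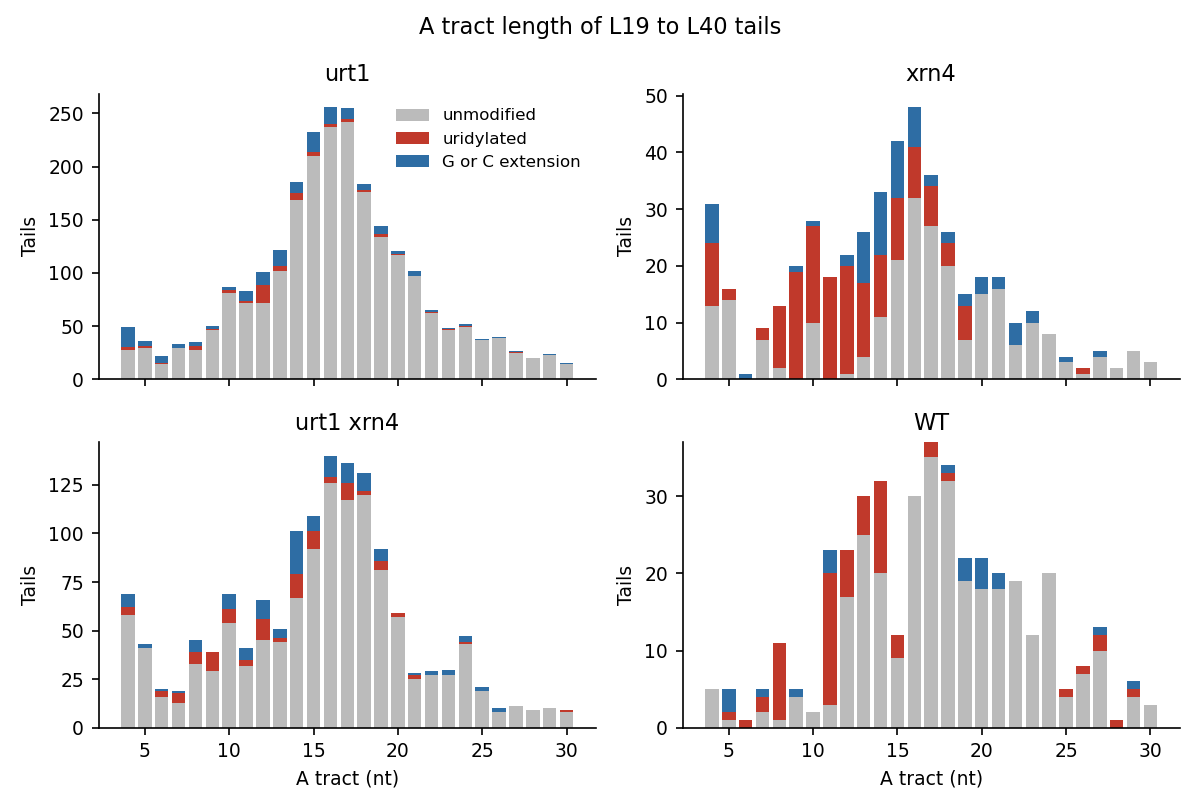
Number of L19 to L40 tails at each A tract length (nt) in each library, split into unmodified tails, uridylated tails and tails with a G or C extension; the vertical scale differs between panels. Uridylated tails lie mainly at 15 A or fewer in xrn4 and WT, and are 62 of 2428 tails in urt1, against 66 of 406 in WT.

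The mean A tract of member tails was 16.2 nt in urt1 (SD 5.17), 14.6 nt in xrn4 (SD 5.77), 15.3 nt in urt1 xrn4 (SD 5.64) and 17.1 nt in WT (SD 5.45), where the SD is over tails of 1 library. Other loci had shorter means, of 14.9, 13.8, 14.3 and 15.4 nt in that order. The L3 to L18a loci had 15.3, 15.5, 14.9 and 16.4 nt, and the small subunit loci 16.04, 15.5, 15.5 and 17.03 nt. Both of these ribosomal sets were above the members in xrn4, and the small subunit loci also in urt1 xrn4. Tails under 10 A were 9.27% of member tails in urt1, 19.1% in xrn4, 16.4% in urt1 xrn4 and 7.88% in WT. Unmodified tails alone averaged 16.5 nt in urt1, 16.4 nt in xrn4, 15.6 nt in urt1 xrn4 and 18.01 nt in WT, so xrn4 was closer to urt1 in this class than among all tails.

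By locus, a mean A tract at least 2 nt shorter than in WT was found in 2 of 7 members in urt1, 2 of 5 in xrn4 and 5 of 7 in urt1 xrn4, and no member tested was longer by that size. Over all loci tested, 22.4% passed that size in urt1, 1.72% longer and 20.7% shorter. In xrn4 50% passed it, 2.94% longer and 47.1% shorter, and in urt1 xrn4 49.1%, 9.43% longer and 39.6% shorter. L31 AT5G56710 averaged 16.3 nt in urt1, 12.8 nt in xrn4, 13.6 nt in urt1 xrn4 and 17.1 nt in WT. L37a AT3G60245 averaged 14.7 nt in urt1, 14.98 nt in xrn4, 14.1 nt in urt1 xrn4 and 17.1 nt in WT, so each mutant lay at least 2 nt below WT at this locus. L23 AT3G04400 stayed between 15.98 and 17.01 nt in the 4 libraries.

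Between urt1 xrn4 and xrn4, 2 of 7 members were longer by at least 2 nt and none was shorter (29.8% of loci passed in either direction, 23.4% longer and 6.38% shorter). They were L22 AT3G05560, at 13.6 nt in urt1 xrn4 and 10.1 nt in xrn4, and L27 AT3G22230, at 17.6 nt in urt1 xrn4 and 14.9 nt in xrn4. Between urt1 xrn4 and urt1, 1 of 18 members was longer and 4 were shorter (32% of loci passed in either direction, 12.8% longer and 19.2% shorter). L19 AT1G02780 was among the shorter, at 13.5 nt in urt1 xrn4 and 17.2 nt in urt1.

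Member reads were 5.60% of the library in urt1, 4.81% in xrn4, 5.45% in urt1 xrn4 and 3.94% in WT. The log2 ratio of these shares to WT was 0.51 in urt1 (0.35 to 0.66), 0.29 in xrn4 (0.09 to 0.48) and 0.47 in urt1 xrn4 (0.31 to 0.63). With identical reads counted once the ratio for urt1 was 0.11. That count merges more reads in the deeper urt1 library, and what part of the change came from copied reads was not tested. The log2 ratio of urt1 xrn4 to xrn4 was 0.18 (0.03 to 0.33), and that to urt1 was -0.04 (-0.13 to 0.06), or 0.30 with identical reads counted once. Of 23 members with at least 20 reads in urt1 and WT together, 9 had at least a 2-fold higher share in urt1 and none a lower one, where 40.7% of the 440 loci tested passed 2-fold in either direction and 28.2% were higher. The median log2 ratio was 0.53 for these members and 0.31 for all loci tested. Counting identical reads once, 2 of the 13 members that then met the minimum were higher and 0 lower. Of all 196 loci then tested, 20 were higher and 24 lower. The medians turned to -0.47 for members and -0.27 for all loci. The deeper urt1 library lets a locus reach the minimum of reads more easily through its urt1 reads. Median ratio scaling would move all log2 ratios of urt1 over WT by 0.15 and those of urt1 xrn4 over WT by 0.11.

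**Figure D5:**
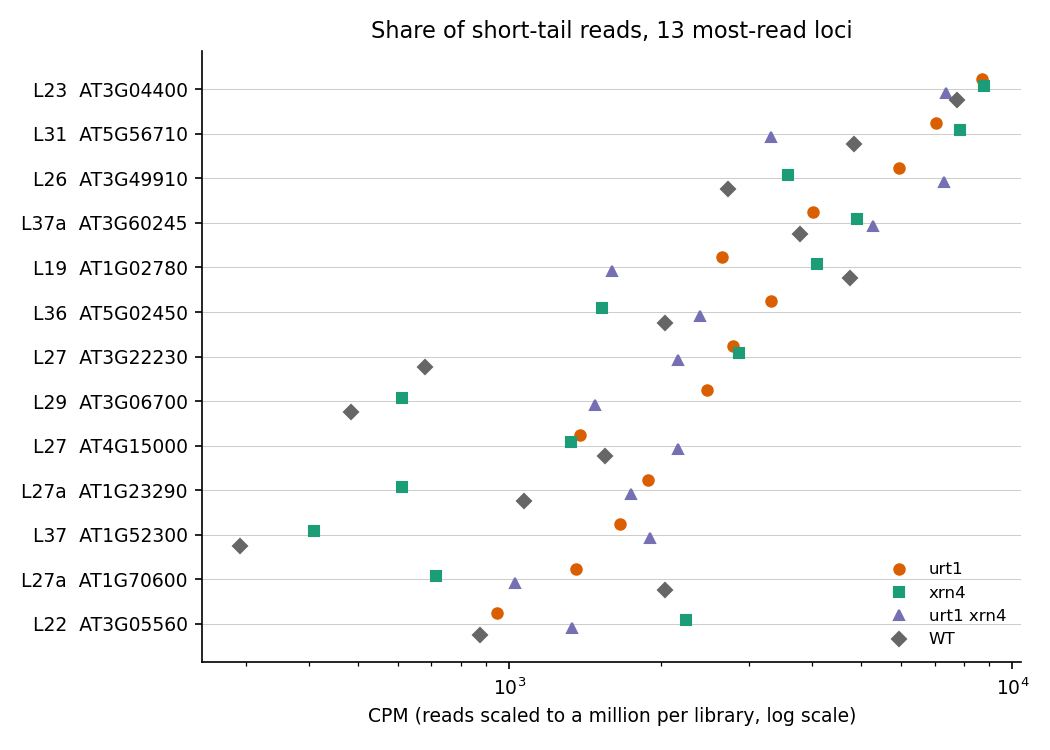
Share of library reads in CPM, on a log scale, for the 13 loci with at least 100 reads over the libraries, with 1 symbol per library. L23 AT3G04400 lies between 7376 and 8778 CPM in the 4 libraries, whereas L37 AT1G52300 has 1659 in urt1 and 1901 in urt1 xrn4, against 408 in xrn4 and 291 in WT.

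Shares of single loci are given in CPM, read counts scaled to the same total in each library. L29 AT3G06700 had 2466 CPM in urt1, 612 in xrn4, 1483 in urt1 xrn4 and 485 in WT. Its log2 ratio was 2.21 for urt1 over WT (1.08 to 3.997). L26 AT3G49910 had 5946 in urt1, 3573 in xrn4, 7300 in urt1 xrn4 and 2717 in WT, with a log2 ratio of 1.11 for urt1 over WT (0.56 to 1.75) and 1.40 for urt1 xrn4 over WT (0.85 to 2.05).

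L19 AT1G02780 went the other way, with 2650 CPM in urt1, 4083 in xrn4, 1597 in urt1 xrn4 and 4755 in WT. Its log2 ratio was -0.85 for urt1 over WT (-1.34 to -0.33) and -1.57 for urt1 xrn4 over WT (-2.20 to -0.95). L31 AT5G56710 had 7052 in urt1, 7860 in xrn4, 3308 in urt1 xrn4 and 4852 in WT, so its double mutant was below both single mutants. L23 AT3G04400 differed by less than 2-fold in each of the 5 comparisons.

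In xrn4 over WT, 2 of 11 members had at least a 2-fold higher share and 1 a lower one. Of all loci tested, 37% passed in either direction, 18.8% higher and 18.1% lower. L27 AT3G22230 and L22 AT3G05560 were higher, at log2 ratios of 1.999 (0.84 to 3.51) and 1.32 (0.19 to 2.67), and L27a AT1G70600 was lower at -1.45 (-2.99 to -0.22). In urt1 xrn4 over WT 9 of 21 members were higher and 1 lower (46% of loci in either direction, 33% higher and 13% lower). The urt1 xrn4 library is deeper than WT and xrn4, so a locus can reach the minimum mainly through its urt1 xrn4 reads. L38 AT3G59540, for example, had 26 reads in urt1 xrn4 and 1 in WT. In urt1 xrn4 over xrn4 6 of 21 were higher and 2 lower (52.6% of loci, 34.3% higher and 18.3% lower). In urt1 xrn4 over urt1 5 of 30 were higher and 3 lower (28.1% of loci, 14.4% higher and 13.7% lower). When identical reads were counted once, 3 of 11 members were higher and none lower in urt1 xrn4 over WT, with a median log2 ratio of 0.14 in place of 0.83. Of all 133 loci then tested, 12 were higher and 15 lower. In urt1 xrn4 over xrn4 it was then 2 of 11 higher and 2 lower (15 and 13 of all 121 loci), and the median turned to -0.24 from 0.55. In urt1 xrn4 over urt1 1 of 21 was then higher and 1 lower (18 and 8 of all 304 loci). The 3 comparisons with WT share that library.

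Families L27 and L27a each had 2 gene copies with at least 100 reads, which allows paralogs to be set side by side. In L27a, AT1G23290 (RPL27AB) had 2 of 82 uridylated tails in urt1, 0 of 6 in xrn4, 0 of 46 in urt1 xrn4 and 0 of 11 in WT. Its paralog AT1G70600 had 4 of 59 in urt1, 5 of 7 in xrn4, 3 of 27 in urt1 xrn4 and 6 of 21 in WT. AT1G23290 was lower than AT1G70600 in all 4 libraries, and the interval of the difference left out 0 in xrn4 (-71.4 points; -91.8 to -18.6) and in urt1 xrn4 (-11.1 points; -28.1 to -0.523), but not in WT (-28.6 points; -50.0 to 1.22) or urt1. The 3 uridylated reads of AT1G70600 in urt1 xrn4 were copies of 1 form, so that interval can rest on 1 molecule.

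In L27, AT3G22230 had 1 of 121 uridylated tails in urt1, 9 of 28 in xrn4, 3 of 57 in urt1 xrn4 and 0 of 7 in WT. AT4G15000 had 7 of 60 in urt1, 3 of 13 in xrn4, 2 of 57 in urt1 xrn4 and 5 of 16 in WT. The interval of the difference between these paralogs left out 0 in urt1 alone, at -10.8 points (-21.4 to -3.87). The 7 uridylated reads of AT4G15000 in urt1 were 4 forms, and 3 of the reads were copies of 1 form, so this interval can be too narrow. No source used here gives how reads that match both copies of a family were assigned, so the split between paralogs is uncertain.

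In most families 1 copy held most of the reads. L26 AT3G49910 gave 98.5% of its family's reads, L23 AT3G04400 96.0%, L36 AT5G02450 93.8% and L31 AT5G56710 89.7%. L35a and L34 were more even, with leading copies at 38% and 47.3%.

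Members also carried G and C extensions, and those of 3 loci are given here, chosen after their values were seen. L37a AT3G60245 ended in C in 30 of 174 tails in urt1, 14 of 48 in xrn4, 48 of 139 in urt1 xrn4 and 3 of 39 in WT. These 95 reads were 23.8% of its 400 reads and the majority of the 159 C extensions of all members. It had the highest share of C of the 120 loci in the table with at least 100 reads, whose median was 1.44%. L27 AT3G22230 had the most G extensions by number, with 34 in urt1, 12 in xrn4, 7 in urt1 xrn4 and 1 in WT, or 25.4% of its 213 reads. Of the 120 loci 1 had a higher share of G, and their median was 4.35%. L24 AT2G36620, with fewer reads, had the higher share of 35.7% (30 of 84). Whether the last base of such tails belongs to the transcript or was added to it was not tested.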

How the data were processed

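The authors' deposited table lists single reads and gives, per the file headers, the library, the A tract length and the length of the added bases in nt, the bases, a class of the 3′ end and the locus. Per the submitters' processing notes, Bowtie2, TopHat2 2.0.9, bedtools 2.17.5 and CASAVA 1.8.2 were used with the TAIR10 build. Not given in the sources used here are read filters and the reason for the limit of 30 A. The table names the double mutant by 2 initials, taken as urt1 xrn4, since its other 3 library names match the labels. The reference annotation, TAIR10.1, was used for names only and matched 8310 loci.

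Reads with the deposited U class were called uridylated. Calculations used pandas 2.3.3, scipy 1.17.1 and numpy 2.4.6 under Python 3.11.15, and plots matplotlib 3.10.9. Shares have exact Clopper-Pearson intervals, differences Newcombe intervals, and ratios of read shares exact conditional binomial intervals; 0.5 was added to counts. A count of 0 allows 3 counts. Loci were counted from 10 points, 2-fold or 2 nt, with at least 20 tails in both libraries (20 reads in both together for shares of reads). The 5 comparisons were urt1, xrn4 and urt1 xrn4 with WT, and urt1 xrn4 with xrn4 and with urt1. The steps were tested on simulated data. Loci with at least 100 reads were described by name, with those passing a size. The members and lists were chosen with earlier results of these data known. Of the L3 to L18a and small subunit lists, 50 and 87 loci with ribosomal or ubiquitin product names were kept. Alternatives were other minimums, scalings, pseudocounts, A limits, single lanes and identical reads counted once.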

Additional observations from a re-analysis of the deposited data

Results flagged for a closer look

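The mean A tract of member tails differed in opposite directions between libraries with and without the urt1 allele, according to the xrn4 background. The difference was -0.855 nt for urt1 minus WT (16.2 nt against 17.1 nt) and 0.678 nt for urt1 xrn4 minus xrn4 (15.3 nt against 14.6 nt). With 1 library per genotype the gap between these values was not tested. Among unmodified tails alone both were negative, at -1.47 nt and -0.870 nt. The number of uridylated tails, which have short A tracts, differed along with it, at 62 of 2428 in urt1 against 66 of 406 in WT, and 97 of 1434 in urt1 xrn4 against 161 of 471 in xrn4; its part in the result was not tested.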

How the results depend on the processing

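Of 151 alternative values for 34 results, 108 stayed close to the value reported, 42 moved and 1 reversed; the cause was not tested. The reversal was the mean A tract of urt1 xrn4 minus xrn4, at -0.870 nt over unmodified tails alone. In that class urt1, xrn4 and urt1 xrn4 minus WT were -1.47, -1.58 and -2.45 nt. Identical reads counted once gave -5.19 points for the uridylated share of urt1 xrn4 minus WT, -18.4 for urt1 xrn4 minus xrn4, log2 read shares of 0.11 for urt1 over WT and 0.30 for urt1 xrn4 over urt1, -0.435 nt for urt1 xrn4 minus urt1, and 45.5% with 1 U in xrn4. Loci weighted equally gave 11.5 points for xrn4 minus WT and -33.0 for urt1 xrn4 minus xrn4. Extensions of U alone gave 9.85 points for xrn4 minus WT, -20.7 for urt1 xrn4 minus xrn4 and 1.85 for urt1 xrn4 minus urt1.

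A changed minimum lets in fewer or more loci. The matching counts over all loci were not made for the changed minimums or, for the uridylated share, with identical reads once. Members 10 points apart, for urt1, xrn4 and urt1 xrn4 over WT, were 1, 1 and 1 of 2 loci each with identical reads once, and 2 of 3 for urt1 xrn4 over xrn4. With at least 50 tails they were 1 for urt1 and for urt1 xrn4 over WT, 2 for urt1 xrn4 over xrn4 and 0 for urt1 xrn4 over urt1. With at least 10 tails they were 5 for xrn4 over WT and 4 for urt1 xrn4 over urt1. Members 2-fold apart in read share, over the 5 comparisons in the order of the text, were 4, 0, 5, 5 and 3 with at least 50 reads and 29, 22, 32, 27 and 26 with no minimum; median ratio scaling gave 5 for urt1 xrn4 over urt1. Members 2 nt apart with at least 50 tails were 0 for urt1 over WT, 1 for xrn4 over WT, 1 for urt1 xrn4 over WT, 0 for urt1 xrn4 over xrn4 and 2 for urt1 xrn4 over urt1; with at least 10 tails they were 5 for xrn4 over WT and 9 for urt1 xrn4 over urt1.

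No paired analysis was possible because the labels give 1 library per genotype, and none has a replicate to leave out. Single lanes and a bound of 3 reads for counts of 0 were chosen after seeing the data and kept the direction of each result they were run on. The WT and xrn4 libraries, with 406 and 471 member reads, limit each comparison by locus.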
